A study of Drosophila melanogaster with 3 samples.

Results

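The genes described here are the 290 nuclear transfer RNA (tRNA) genes of Drosophila melanogaster, all genes of biotype tRNA on the 6 chromosome arms in the Ensembl 115 annotation, out of 18164 genes. Membership was set by annotation, though earlier results of these data were known when the class was chosen. The 22 mitochondrial tRNA genes were not included. Chromatin immunoprecipitation sequencing (ChIP-seq) was done for the protein encoded by CG13296. Peaks lay near 41 of these genes in the stringent peak set and near 198 in the relaxed pooled list. The pooled list is labelled as peaks and background, so an entry there need not be a binding site. Of the 198 genes, 157 had no peak near them in the stringent set. The 290 genes carry the annotation of 22 isotypes and 45 pairs of isotype and anticodon, with symbols that give both, such as tRNA:Tyr-GTA-1-8.

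The samples were whole embryos of both sexes, 6 to 18 hours old, from a transgenic strain that carries CG13296 fused at its C-terminal end to green fluorescent protein (CG13296-GFP). They form 1 group of 3 biological replicates, and no untagged or other group was analysed here. Whole embryos mix all cell types, so a site present in few cells and a weak site in all cells cannot be told apart. The labels call the libraries input in one field, but the assay and antibody fields and the records of how the lists were derived treat them as immunoprecipitated chromatin, with 1 control in common. The values below are given on that reading.

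tRNA genes are short genes transcribed by RNA polymerase III. Their promoter lies inside the gene: an A box and a B box are recognised by the factor TFIIIC, which brings in TFIIIB just upstream, and transcription ends at a run of T. Flies carry many copies of most tRNA genes, often in local clusters and in both orientations. CG13296, called Prdm13 in the annotation, encodes a zinc-finger protein of the PR domain family of transcriptional regulators.

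Sequence features of RNA polymerase III genes were found in nearly all members. The B box core, searched on the sense strand as GTTCGANNC or GTTCAANNC, was in 271 of 290 genes (93.4%), against 196 of 19607 windows of 73 bases that start at protein-coding transcription start sites (TSSs). The letters TTTT, a minimal terminator, occurred on the sense strand within 30 bases after 277 genes (95.5%) and in 20.5% of windows of 30 bases at coding TSSs. Gene length ran from 71 to 186 bases with a median of 73, and 16 genes had an intron. Only 95 distinct sequences occurred over the whole genes: 238 genes had an identical copy elsewhere, up to 13 copies, and 52 were single.

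The Tyr genes are shown first, because one of them carried the highest-signal site of all tRNA genes while others of the same spliced sequence carried none. Capitals mark the exons and lower case the intron. All sequences were read from the RefSeq copy of the release 6 genome (dm6), in which all 290 genes had the same start and end, and are written 5′ to 3′ on the strand of the gene. The genes tRNA:Tyr-GTA-1-9 and tRNA:Tyr-GTA-1-2 were added for contrast after their values were seen.
tRNA:Tyr-GTA-1-8: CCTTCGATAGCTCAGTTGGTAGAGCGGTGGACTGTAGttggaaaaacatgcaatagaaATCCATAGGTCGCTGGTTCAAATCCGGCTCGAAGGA
tRNA:Tyr-GTA-1-9: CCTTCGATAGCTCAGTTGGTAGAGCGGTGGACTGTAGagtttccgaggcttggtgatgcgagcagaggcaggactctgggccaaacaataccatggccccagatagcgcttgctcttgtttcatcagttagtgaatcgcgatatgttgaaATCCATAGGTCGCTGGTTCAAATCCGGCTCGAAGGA
tRNA:Tyr-GTA-1-2: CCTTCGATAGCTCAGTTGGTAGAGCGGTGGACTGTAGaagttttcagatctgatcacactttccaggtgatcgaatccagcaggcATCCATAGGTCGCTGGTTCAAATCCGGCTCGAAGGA
The exons of these genes spell the same 73 bases, and the introns are 21, 113 and 48 bases long. Of the 10 Tyr genes, all with an intron, 9 share this spliced sequence, and no pair has the same sequence with the intron included. tRNA:Tyr-GTA-1-8 lies on 3R (8669081 to 8669174, minus strand), tRNA:Tyr-GTA-1-9 on 2L (7711476 to 7711661, plus strand) and tRNA:Tyr-GTA-1-2 on 2L (2459924 to 2460044, minus strand).

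A further 5 genes with a site in the stringent set are shown with the B box core in capitals, to let the shared promoter element be compared across isotypes.
tRNA:Leu-TAA-2-1: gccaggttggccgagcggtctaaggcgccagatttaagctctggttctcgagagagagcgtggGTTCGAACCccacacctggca
tRNA:Leu-TAA-4-1: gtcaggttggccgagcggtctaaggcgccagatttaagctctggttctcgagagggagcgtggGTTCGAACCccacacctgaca
tRNA:Asp-GTC-1-4: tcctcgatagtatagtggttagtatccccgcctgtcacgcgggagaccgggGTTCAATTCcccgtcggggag
tRNA:Ser-AGA-2-4: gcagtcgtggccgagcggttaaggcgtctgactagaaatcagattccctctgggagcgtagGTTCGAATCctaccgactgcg
tRNA:Arg-TCG-2-4: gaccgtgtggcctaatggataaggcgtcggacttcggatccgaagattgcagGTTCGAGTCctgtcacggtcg
These Leu genes, both single-copy and on 3R, differ at 3 of 84 bases. tRNA:Asp-GTC-1-4 has 12 identical copies counting itself, tRNA:Ser-AGA-2-4 has 5 and tRNA:Arg-TCG-2-4 has 4.

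The position of highest enrichment, the summit, is shown relative to the gene for a pair of sites. Both lay closer to the gene than most, at 0 and 14 bp against a median of 114 bp over 31 stringent summits. Only 1 of these 31 lay inside a tRNA gene. Each window holds the plus strand from 50 bases before to 50 bases after the summit, with bases of the tRNA gene in capitals.
Window at tRNA:Arg-TCG-2-4, chr3R:8862895-8862995: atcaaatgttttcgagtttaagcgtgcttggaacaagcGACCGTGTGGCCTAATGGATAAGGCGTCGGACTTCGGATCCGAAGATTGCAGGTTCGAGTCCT
Window at tRNA:Ser-AGA-2-4, chr2L:3172939-3173039: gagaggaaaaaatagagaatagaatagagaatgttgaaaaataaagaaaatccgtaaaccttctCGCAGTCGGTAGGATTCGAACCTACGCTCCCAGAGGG
At tRNA:Arg-TCG-2-4 the summit lay inside the gene, 12 bp from its start, and 63 bases of the window belong to it. At tRNA:Ser-AGA-2-4, transcribed on the other strand, the summit lay 95 bp from the start and just beyond the gene's 3′ end, with 37 bases of the window in the gene.

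In the stringent set, the 5724 summits that passed the authors' irreproducible discovery rate (IDR) threshold, the share of tRNA genes with a site was below that of genes in general, a difference that was not tested. A summit lay within 500 bp of the start of 41 of 290 tRNA genes (14.1%, exact 95% interval 10.3 to 18.7), against 19.7% of all genes and 23.3% of protein-coding genes. The bases of the 6 arms within 500 bp of such a summit made up 4.01%. Intervals here cover counting error only, and neighbouring genes share summits, so the members are not independent. With the 5724 summits of highest signal from each replicate's own list, 28 tRNA genes (9.66%) had a site in replicate 1, 52 (17.9%) in replicate 2 and 45 (15.5%) in replicate 3, beside 19.5%, 19.7% and 20.1% of all genes. The mean was 14.4% ± 4.26 (SD, n = 3) for tRNA genes and 23.3% ± 0.358 for protein-coding genes, so all replicates placed tRNA genes below coding genes, with a wider spread for the tRNA genes. When only stringent summits found again in the highest-signal lists of the other replicates were kept, 27, 19 and 20 genes had a site without replicates 1, 2 and 3, a stricter set in each case.

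The relaxed lists, of 30000 summits each, showed the opposite order. The pooled list, labelled as peaks and background, reached down to a signal of 44.3, against 188 in the stringent set. In the pooled list 198 of 290 tRNA genes (68.3%, 62.6 to 73.6) had a summit within 500 bp, against 44.6% of all genes, 49.3% of protein-coding genes and 18.2% of bases. Replicates 1, 2 and 3 gave 66.2%, 64.5% and 66.9%, beside 45.8%, 44.6% and 46.6% of all genes. The mean over replicates was 65.9% ± 1.24 (SD, n = 3) for tRNA genes and 50.7% ± 1.46 for protein-coding genes, and these ranges did not overlap. Other classes of genes that do not code for protein stood lower in the pooled list: 21.6% of 269 snoRNA genes, 34.4% of 32 snRNA genes, 28.6% of 3261 ncRNA genes and 12.3% of 268 pseudogenes had a summit. Their stringent shares of 9.29%, 9.38%, 8.13% and 2.99% were also below the 14.1% of tRNA genes. No class was tested against another, since the design has a single group and genes near each other share summits.

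**Figure D1:**
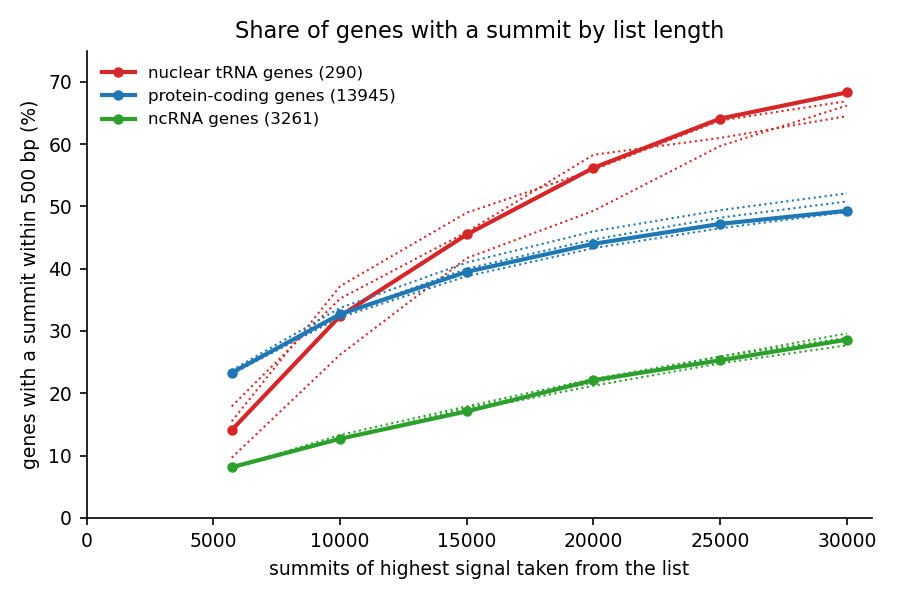
Percent of genes with a summit within 500 bp against the number of highest-signal summits taken from a list, for nuclear tRNA genes, protein-coding genes and ncRNA genes; solid lines are the pooled list and dotted lines the 3 replicates. In the pooled list tRNA genes start at 14.1%, below coding genes at 23.3%, meet them near 10000 summits and end at 68.3% against 49.3%.

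The order changed within the list. In the pooled list cut to its 10000 highest signals, 32.4% of tRNA genes and 32.7% of coding genes had a summit. At 15000 summits the shares were 45.5% and 39.5%, and at 20000 they were 56.2% and 44.0%. The 189 pooled summits near tRNA genes had a median rank of 12695 of 30000. Recurrence was counted by gene and not by summit, and the pooled list was itself derived from the same 3 replicates. In the relaxed lists of all 3 replicates 146 genes (50.3%) had a summit, with 52 in 2, 31 in 1 and 61 in none. Of coding genes 39.1%, and of all genes 34.4%, had one in all 3. Of the 157 tRNA genes with a pooled summit and none in the stringent set, 102 had a relaxed summit in every replicate. The matching share was not counted for coding genes or for all genes, so this count has no background beside it.

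Summits gathered around the tRNA genes themselves. Within 200 bp of the gene start the pooled list held 13.4 summits per 100 genes in each 100-bp bin, and 1 to 2 kb away it held 4.69, a ratio of 2.85. Around protein-coding TSSs the pooled list held 9.65 within 200 bp and 2.99 at 1 to 2 kb, both below the tRNA values. The replicates' own ratios had a mean of 2.68 ± 0.121 (SD, n = 3), against 3.23 ± 0.111 around protein-coding TSSs. The lower tRNA ratio thus came with more summits in both zones, not with fewer near the start. For the 151 tRNA genes more than 2500 bp from any coding TSS the replicates' ratio was 2.59 ± 0.3. A summit was counted at every start in reach, and 83 pooled summits lay near 2 or more tRNA genes. The part of such neighbours in these values was not tested. Of the 189 pooled summits, 30 lay inside a tRNA gene, 102 within 100 bp of one, and the median distance to the gene was 87 bp. In the stringent set 31 distinct summits served the 41 genes: 1 lay inside a gene, 13 within 100 bp, and the median distance was 114 bp. Fragments of 200 to 800 bp limit how finely these positions can be read.

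**Figure D2:**
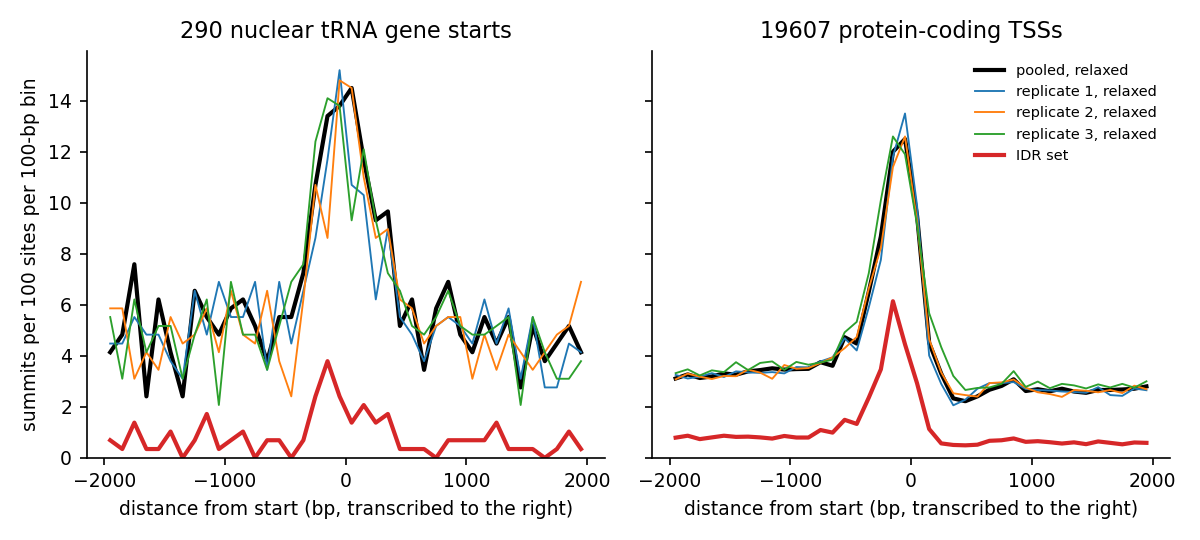
Summits per 100 sites in 100-bp bins against distance from the start, with the direction of transcription to the right, around 290 tRNA gene starts (left) and 19607 protein-coding TSSs (right); lines are the pooled list, the 3 replicates and the IDR set. All relaxed lists peak near the tRNA start, where the pooled list averages 13.4 within 200 bp against 4.69 at 1 to 2 kb.

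Sites at tRNA genes were split by whether the promoter of a protein-coding gene was near. Of the 31 stringent summits, 21 (67.7%) had no coding TSS within 500 bp and 10 had one, against 50.4% without one over all stringent summits. Of the tRNA genes themselves, 258 of 290 had no coding TSS within 500 bp. Among the 10 summits with both kinds of gene in reach, 7 lay nearer to the body of the tRNA gene than to the coding TSS. All 10 were picked for lying within 500 bp of a tRNA gene start. Measured to the start, the summit at tRNA:Val-CAC-2-5 (478 bp, and 421 bp to the coding TSS) would not be among the 7. The 28 genes whose nearest stringent summit had no coding TSS close by numbered 14, 11 and 12 when replicates 1, 2 and 3 were left out in the way described above. In the pooled list, 157 of 189 summits near tRNA genes had no coding TSS within 500 bp, 83.1% against 70.1% of all pooled summits. The sites of highest signal had another makeup: 7 of the 12 highest-ranked summits at tRNA genes had a coding TSS within 500 bp, and 3 of the other 19. The median rank was 1549 with a coding TSS and 3911 without.

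From the tRNA genes nearest to a coding gene to those farthest from one, the stringent share went from 34.4% to 3.64% and the pooled share from 78.1% to 62.7%. Of the 32 tRNA genes with a coding TSS within 500 bp, 11 (34.4%) had a stringent summit and 25 (78.1%) a pooled one. Of the 110 tRNA genes more than 5000 bp from a coding TSS, 4 (3.64%) had a stringent summit and 69 (62.7%) a pooled one. Bases of the genome at those distances stood at 16.5% and 1.36% for the stringent set and at 43.2% and 11.7% for the pooled list. ncRNA genes at the same distances stood at 50.2% and 21.7% in the pooled list, and at 21.4% and 3.41% in the stringent set. Among genes more than 5000 bp from a coding TSS, the tRNA and ncRNA shares lay close together in the stringent set and apart in the pooled list. Nearer to a coding TSS the stringent tRNA share was the higher one. More than 500 and up to 1000 bp away, it was 19.1% against 10.4% of ncRNA genes. More than 1000 and up to 5000 bp away, it was 16.8% against 5.54%. These differences were not tested.

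**Figure D3:**
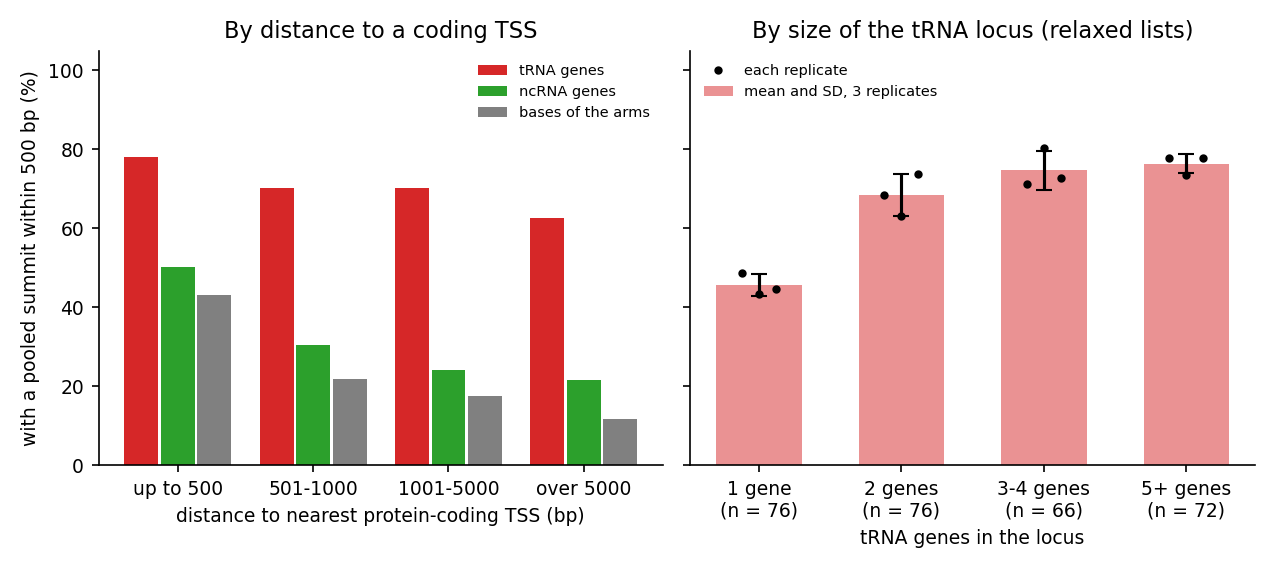
Left, percent of tRNA genes, ncRNA genes and bases of the arms within 500 bp of a pooled summit, by distance to the nearest protein-coding TSS; right, percent of tRNA genes with a summit in the relaxed lists by number of tRNA genes in the locus (bars, mean of 3 replicates with SD; points, each replicate). tRNA genes stay between 62.7% and 78.1% on the left, and lone genes average 45.6% on the right against 76.4% in loci of 5 or more.

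The strongest site at a tRNA gene was at tRNA:Tyr-GTA-1-8, the single-copy Tyr gene shown above. Its summit, 186 bp upstream of the start, ranked 118 of 5724 in the stringent set and 127, 106 and 122 in replicates 1, 2 and 3. It also lay 258 bp from the TSS of CG8036, a protein-coding gene whose body contains the tRNA gene. These 4 ranks lie close together, and no other tRNA gene reached the first 500 in the stringent set.

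Further high sites had both a tRNA gene and a coding TSS within 500 bp. The site at tRNA:Phe-GAA-1-2 on X (6744471 to 6744543) ranked 694, and 596, 515 and 1003 in the replicates, and its summit lay 22 bp from the TSS of RpL17, a large ribosomal subunit protein, and 350 bp from the tRNA start. tRNA:Leu-TAA-2-1 ranked 1032, with 1194, 854 and 1078 in the replicates, and its summit lay 186 bp upstream of the tRNA gene and 389 bp from the TSS of CG13605. At tRNA:Trp-CCA-2-2 on 2R the summit ranked 1098 and lay 13 bp from the TSS of CG30122 and 300 bp from the tRNA gene. tRNA:His-GTG-1-3 (rank 1610) shared a summit with CG8490 (152 bp from the tRNA gene and 98 bp from the coding TSS), tRNA:Val-CAC-2-5 (rank 1488) with Naam, a nicotinamidase, and the divergent pair tRNA:Asp-GTC-1-4 and tRNA:Asp-GTC-1-5 (rank 2599) with Sema1a, a semaphorin of axon guidance. The summit lay 478 bp from the start of tRNA:Val-CAC-2-5 and 421 bp from the TSS of Naam, and 95 bp from the start of tRNA:Asp-GTC-1-5 and 291 bp from the TSS of Sema1a.

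Sites with no coding TSS within 500 bp began at rank 1324. That summit lay between tRNA:Arg-CCT-1-2 and tRNA:Arg-CCT-1-3, which are transcribed away from each other on 2R (20000296 to 20000891), 192 and 259 bp upstream of their starts and 4443 bp from the nearest coding TSS. It ranked 1142, 2374 and 1368 in the replicates. tRNA:Thr-AGT-1-2 followed at rank 1585, with 983, 1656 and 3392 in the replicates and a summit 114 bp upstream. Further sites of this kind were at tRNA:Ser-AGA-2-4 (rank 2784), between the divergent tRNA:Phe-GAA-1-4 and tRNA:Phe-GAA-1-5 (2816), and inside tRNA:Arg-TCG-2-4 (3134), a gene within pyd, the ZO-1 homologue of cell junctions.

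The other 21 genes of this kind ranked between 3059 and 5606. A summit at rank 3059 served tRNA:Pro-TGG-1-2, tRNA:Ala-AGC-2-2 and tRNA:Ala-AGC-2-3 on 3R, and ranked 3122, 1905 and 5871 in the replicates. One at rank 3911 served tRNA:Leu-CAG-1-2, tRNA:Leu-CAG-1-3 and tRNA:Leu-CAG-1-4 on 3L. The divergent pair tRNA:Ser-TGA-1-1 and tRNA:Ser-TGA-2-1 shared a summit at rank 3858, and these are both genes of their anticodon. tRNA:Ala-TGC-2-1 (3230), tRNA:Glu-TTC-1-5 (3362), tRNA:Leu-TAA-4-1 (3844, within jar, a myosin gene) and tRNA:Ile-AAT-1-8 (4000, within ATP8A) had a summit to themselves.

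Lower in the set were tRNA:Ala-AGC-2-1 (4277), which lies within nmo, a kinase gene, and 27757 bp from a coding TSS, and tRNA:Val-AAC-2-1 with tRNA:Ser-CGA-1-4 (4544), both within hts. tRNA:Thr-TGT-2-1 (4965) within sprt and tRNA:Phe-GAA-1-3 (5120) within Sema1a followed, then tRNA:Asn-GTT-1-2 with tRNA:Asn-GTT-1-3 (5361) within EcR, the ecdysone receptor gene, and tRNA:Met-CAT-1-1 with tRNA:Arg-TCT-1-1 (5606). The Met and Arg pair ranked 10994, 2856 and 4659 in the replicates. The widest spread among the 41 genes was at tRNA:Gln-TTG-1-2 and tRNA:Gln-TTG-1-3 (rank 4846, summit shared with Spag1), which ranked 23956, 2826 and 3079. Of the 41 genes, 18 had a summit among the 5724 highest signals of every replicate and 40 had one in all 3 relaxed lists, with tRNA:Gly-GCC-1-9 missing from replicate 1.

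**Figure D4:**
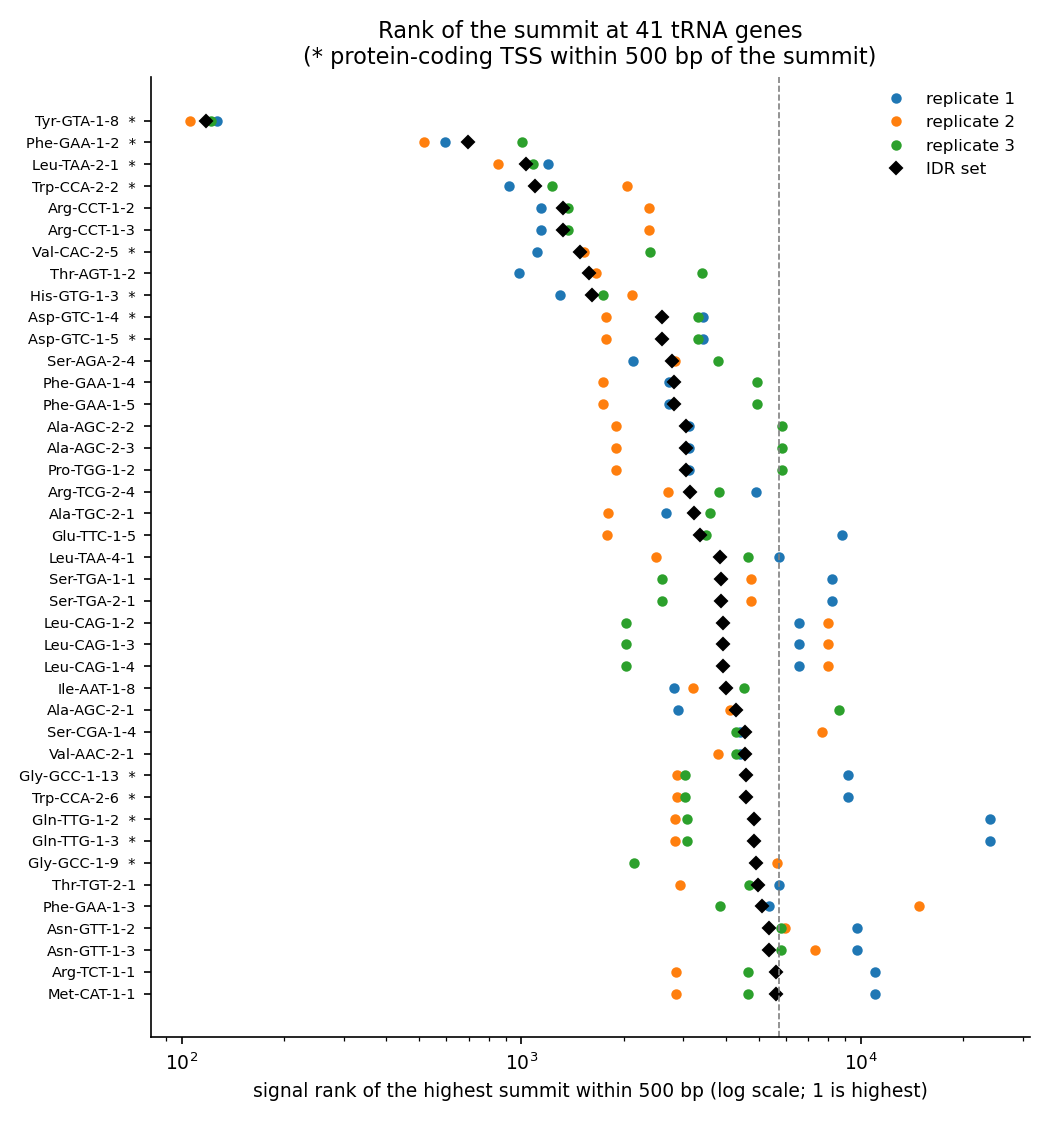
Signal rank of the highest summit within 500 bp, on a log scale, for the 41 tRNA genes with an IDR summit (rows), in the IDR set and in each replicate; the dashed line marks rank 5724 and asterisks mark summits with a protein-coding TSS within 500 bp. tRNA:Tyr-GTA-1-8 holds ranks 106 to 127 in the replicates, and the widest spread is that of tRNA:Gln-TTG-1-2 and tRNA:Gln-TTG-1-3, from 2826 to 23956.

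By isotype, 18 of 22 had at least 1 gene with a stringent summit. Phe was highest with 4 of 8 genes, followed by Trp with 2 of 8, Ala with 4 of 17, Leu with 5 of 22, and Ser, Asn and His at 20% with 4 of 20, 2 of 10 and 1 of 5. No stringent summit lay near any of 19 Lys, 7 Cys or 6 initiator Met (iMet) genes, or near the single selenocysteine (SeC) gene. Counts this small limit any order: Phe stayed at 50%, 37.5% and 50% in the replicates' highest-signal lists, whereas Cys had 0, 0 and 3 of 7 genes. The 8 Phe genes are identical in sequence, and 3 summits serve the 4 with a site.

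The relaxed lists gave a fuller view of the isotypes. Means over the replicates ran from 93.3% ± 11.5 for His (5 genes), 90.9% ± 9.09 for Ile (11) and 83.3% ± 14.4 for Trp (8), through 78.8% ± 11.4 for Leu (22) and 78.4% ± 3.4 for Ala (17), to 50% for both Tyr (10) and Met (6), 48.7% ± 2.22 for Arg (26) and 43.3% ± 10.4 for Gly (20). Neighbours in this order overlap within their SDs, other than the SeC gene. His, Ile, Trp and Ala were at 75% or above in every replicate, and Tyr, Met, Arg and Gly, beside SeC, at 55% or below in every replicate. No list held a summit near the single SeC gene.

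**Figure D5:**
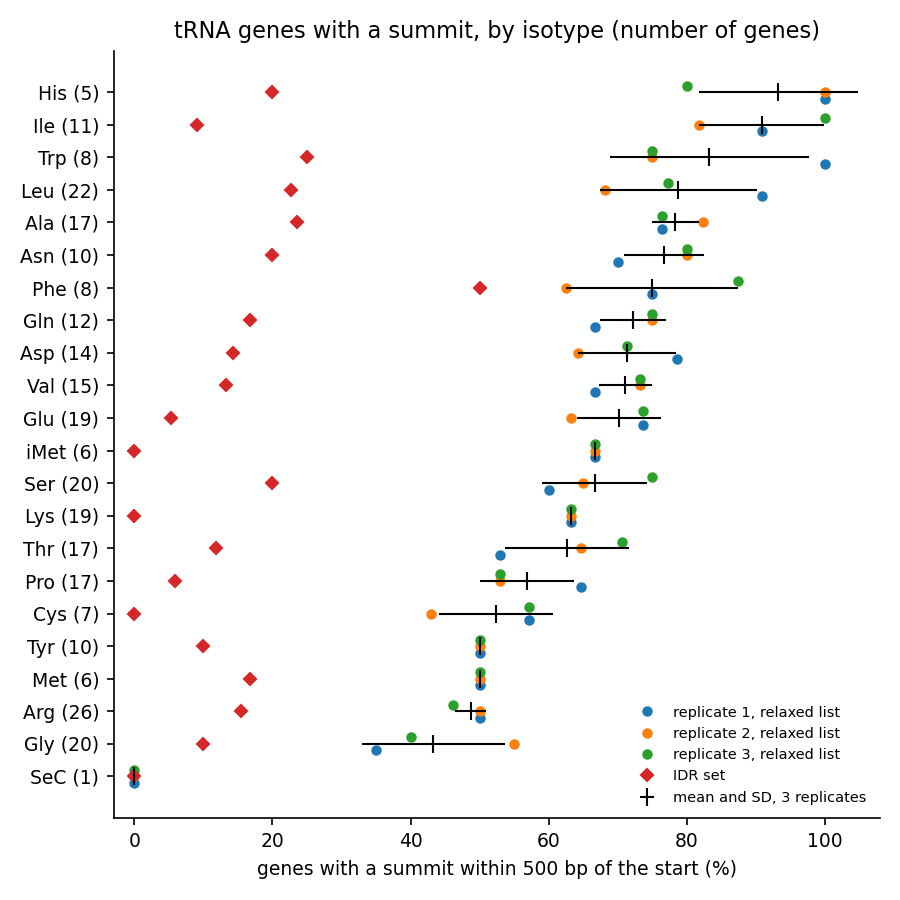
Percent of genes of each tRNA isotype with a summit within 500 bp of the start, with the number of genes in brackets; circles are the 3 replicates' relaxed lists, black marks their mean and SD, and red diamonds the IDR set. His, Ile, Trp and Ala lie at 75% or above in every replicate, and Tyr, Met, Arg, Gly and SeC at 55% or below.

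Within an isotype the sites followed individual loci. The same 5 Tyr genes, all on 3R, had a summit in the pooled list and in every replicate, and the other 5, on 2L and X, had none in any of these. tRNA:Tyr-GTA-1-9 is 11 bp from a coding TSS and still had none. Genes that differ in their anticodon also differed: in the pooled list 10 of 13 Lys-CTT genes had a summit and 1 of 6 Lys-TTT genes, and 7 of 7 Pro-AGG genes had one and 0 of 5 Pro-CGG genes. For Arg-TCG the count was 2 of 10, with 7 of these genes on X. All 5 Pro-CGG genes stand alone, whereas 6 of the 7 Pro-AGG genes are clustered, so anticodon and locus cannot be told apart here.

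Position on the arms and in clusters varied with the share of genes that had a site. In the pooled list, 81.6% of 98 tRNA genes on 2R had a summit, 70.7% of 41 on 2L, 65.8% of 79 on 3R, 62.5% of 48 on 3L and 29.2% of 24 on X. All genes of X stood at 45.8% and the bases of X at 18.1%, close to the other arms that carry tRNA genes. The lower share on X was thus seen for tRNA genes and not for genes as a whole. The replicates gave 29.2%, 20.8% and 33.3% for X and between 80.6% and 81.6% for 2R. X carries isotypes unevenly, and among genes of the autosomes Ser stood at 83.3% and Pro at 78.6%, with 70.0% and 64.7% over all arms.

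Genes joined into loci with gaps of at most 5 kb formed 68 clusters with 214 genes, and 76 genes stood alone. A relaxed summit was found at 45.6% ± 2.74 of lone genes (SD over replicates, n = 3), 68.4% ± 5.26 of genes in pairs, 74.7% ± 4.87 in loci of 3 to 4 and 76.4% ± 2.41 in loci of 5 or more. The lone genes stood below each class of clustered genes in the relaxed list of every replicate. The stringent set did not keep this order, with 10.5%, 23.7%, 12.1% and 9.72% in the same classes. On the autosomes alone the relaxed values were 47.5% ± 2.31 for lone and 76.5% ± 0.866 for clustered genes, and on X they were 33.3% ± 5.77 for 10 lone and 23.8% ± 10.9 for 14 clustered genes. A clustered gene can also take its summit from a neighbour, and the number of pooled summits per gene was 0.526 for lone genes and between 0.639 and 0.763 in the clusters.

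Stringent summits were spread over 27 loci, 8 of them lone genes. In 7 clusters every member had one, and in 2 clusters 3 or more members did. Of the 2 largest clusters, each of 11 genes, the one on 3R (17617761 to 17631750) had 3 genes with a stringent summit and 11 with a pooled one, and the one on 2R (6161535 to 6171759) had 0 and 9. Of the 3 clusters of 7 genes, one on 2R (13430282 to 13432794) had 0 and 7, another on 2R (19725620 to 19728958) had 1 and 7, and that on X (14014814 to 14017284) had 0 and 3. More than 1 stringent summit was found in 4 clusters, with 2 each. In the pair tRNA:Ser-AGA-2-3 and tRNA:Ser-AGA-2-4 on 2L, both summits lay near tRNA:Ser-AGA-2-4 only. In the pair tRNA:Thr-AGT-2-1 and tRNA:Thr-AGT-1-2 on 2R, both lay near tRNA:Thr-AGT-1-2 only. The others were tRNA:Trp-CCA-2-2 with tRNA:Gly-GCC-1-9 on 2R, and the 6 Leu-CAG genes on 3L (8060214 to 8068290).

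Identical copies are hard to place by short reads, and how the authors treated reads with several matches is not given in the sources used here. The mean relaxed share was 54.5% ± 2.22 for single-copy genes, 65.6% ± 7.7 for genes with 2 to 3 copies, 64.1% ± 4.44 with 4 to 6 and 72.4% ± 1.31 with 7 or more. Among clustered genes alone it was 67.8% ± 5.27 for single copies and 75.4% ± 1.26 with 7 or more, and among lone genes 37.7% ± 2.51 and 61.3% ± 8.33. The stringent shares, 13.5%, 13.3%, 13.2% and 15.4%, lay close together. The part of read placement in these values was not tested.

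Features of the gene were set beside the presence of a site. A stringent summit was near 38 of 271 genes with a match to the B box core (14.0%) and 3 of 19 without one (15.8%). A pooled summit was near 67.5% and 78.9%. Genes without a match included the 6 iMet genes and the 11 identical genes tRNA:Ala-AGC-2-1 to tRNA:Ala-AGC-2-11. The 3 with a stringent summit shared 2 summits, and match and isotype cannot be told apart here. The letters TTTT after the gene went with a pooled summit at 67.5% of 277 genes, and their absence with one at 84.6% of 13. The stringent shares were 14.1% and 15.4%. These 13 included the 5 identical His genes, all with a pooled summit. Of the 16 genes with an intron, 10 (62.5%) had a pooled summit and 1 (6.25%) a stringent one, against 68.6% and 14.6% of the 274 without. Inside a protein-coding gene, 9.7% of 134 genes had a stringent summit, and outside 17.9% of 156. The share inside was also the lower one in each replicate's highest-signal list, at 8.96%, 15.7% and 12.7% against 10.3%, 19.9% and 17.9%. In the relaxed lists the replicate means were 65.9% ± 2.28 inside and 65.8% ± 1.33 outside. The palindrome TATCGATA, which reads alike on both strands and is known as the site of the promoter factor DREF, was within 100 bp of 1 of the 31 stringent summits near tRNA genes and of 179 of all 5724 (3.13%).

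Sites were also counted at the genes that make and process tRNA, in lists drawn up by symbol. Among 22 genes of RNA polymerase III and its factors, 7 (31.8%) had a stringent summit and 12 (54.5%) a pooled one, against 23.3% and 49.3% of all coding genes. In the highest-signal lists the share was 40.9%, 27.3% and 31.8% in replicates 1, 2 and 3, against 23.1%, 23.1% and 23.7%. The highest ranks were those of Polr3E, a polymerase subunit, at 167 (292, 131 and 135 in the replicates), of Bdp1, a TFIIIB subunit, at 260 (296, 385 and 196) and of Brf, another TFIIIB subunit, at 430 (486, 431 and 457). l(2)37Cd at 1267 and Pbp49, a subunit of the snRNA promoter complex, at 2904 followed.

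Of 33 genes of tRNA processing and modification, 13 (39.4%) had a stringent summit and 24 (72.7%) a pooled one, against 23.3% and 49.3% of all coding genes. The highest-signal lists gave 42.4%, 30.3% and 48.5%, against 23.1%, 23.1% and 23.7%. Elp5 at rank 119 (88, 110 and 181 in the replicates) and Elp6 at 143 (262, 187 and 84) encode Elongator subunits, which modify wobble uridines. Trmt61 at 266 and Trmt6 at 641 form a tRNA adenosine methyltransferase, and Archease at 1089 is a partner of the tRNA ligase. No difference of either list from all coding genes was tested. Polr3E, Bdp1, Brf, Elp5, Elp6, Trmt61 and Trmt6 each ranked above every tRNA gene but tRNA:Tyr-GTA-1-8.

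Of 106 other genes transcribed by RNA polymerase III, 3 had a stringent summit: snRNA:7SKa at rank 826 (696, 660 and 1206 in the replicates), RNaseMRP:RNA at 2728 and snRNA:U6:96Ac at 5493. The 96 5S rRNA genes make up most of that list, and 0 had a stringent summit and 1 a pooled one. Of the other 10 genes, 3 (30%) had a stringent summit and 4 (40%) a pooled one, against 19.7% and 44.6% of all genes. The 5S rRNA genes form a tandem array of near-identical repeats, and the limit of placing reads in such repeats holds for them too.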

How the data were processed

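Peak lists of 1 group with 3 biological replicates were analysed. Per the deposited derivation records, the authors called relaxed peaks for each replicate and for the pooled replicates against 1 control file, and derived the IDR set from them, on dm6. The deposited signal value of each peak was used only to rank summits within a list. The deposited −log10 q-value was not used for ranking. The caller, the aligner, the read numbers and the cut-off behind the IDR set are not given in the sources used here; the depth is therefore unknown.

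Summits were set against gene starts of Ensembl 115 (BDGP6.54), without transposable elements. A gene had a site when a summit lay within 500 bp of its start, for other classes of any of its TSSs. Highest-signal lists held the first 5724 summits of a replicate. Clusters joined tRNA genes with gaps of at most 5 kb. Copies are identical over the gene. Intervals are exact binomial at 95%. No tests were made, as there is 1 group. Members, lists and motifs were chosen with earlier results of these data known. Genes named were the 12 of highest signal, 1 per summit, every gene near a stringent summit without a coding TSS, the highest of each isotype, the largest clusters and those with most summits, up to 5 members per list, and coding genes sharing a summit; Tyr, Lys, Pro and Arg genes compared by anticodon were chosen after their values were seen. Counting was checked on planted summits. Software was pandas 2.3.3, numpy 2.4.6 and scipy 1.17.1 in Python 3.11.15, with figures from matplotlib 3.10.9. Distances, peak sets, cluster gaps and replicates were varied.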

Additional observations from a re-analysis of the deposited data

How the results depend on the processing

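No paired analysis was possible because the design has 1 group. For the number of tRNA genes with a stringent summit (41), of distinct summits (31), of genes whose nearest summit has no coding TSS (28), of loci (27) and of isotypes (18), distances of 1000 bp or to the gene body, each replicate's own list, both other cluster gaps and 1 summit per 1000 bp kept every count within 1.5 times. A distance of 200 bp left 26 genes, and the other 4 counts stayed within 1.5 times. The 2862 summits of highest signal gave 14 genes, 11 summits, 6 genes without a coding TSS, 11 loci and 10 isotypes. Support in all 3 replicates gave 15, 12, 7, 12 and 10. The relaxed pooled list gave 198, 189, 171 and 90, with 21 isotypes. Leaving out each replicate gave 19 to 27 genes, 15 to 20 summits, 11 to 14 genes without a coding TSS, 15 to 19 loci and 11 to 14 isotypes. These sets are smaller by construction, with 3630 summits with full support and 4081 to 4197 with a replicate left out, against 5724 in the full set. For the share by isotype, the replicates' lists moved 8, 7 and 4 of 22 isotypes beyond the SD over replicates, an SD taken from these same lists. The relaxed pooled list moved 21, all upward. That list also holds the stringent summits, so no share could fall in it. The number of peaks, not reads, is all that these lists hold, so whether a gene without a summit lacked coverage could not be measured.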

Other observations

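The 61 tRNA genes without a relaxed summit in any replicate were 21% of the class, against 42.8% of all genes and 37.9% of coding genes. These 61 genes were unevenly placed. They included 14 of the 24 tRNA genes on X, 8 of 98 on 2R, 30 of the 76 lone genes and 31 of the 110 genes more than 5000 bp from a coding TSS. By isotype they included 8 of 26 Arg genes, 7 of 20 Gly genes, 6 of 19 Lys genes and 5 of 10 Tyr genes, and none of the 5 His, 11 Ile or 8 Trp genes. The 5 identical genes tRNA:Lys-TTT-2-1 to tRNA:Lys-TTT-2-5, of which 4 form a cluster on 3R, had no summit in the pooled list or in any replicate.

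tRNA:Cys-GCA genes had no stringent summit, and a summit at rank 5724 of replicate 3, the last rank counted there among the highest signals, served 3 of them.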
